A study of Mus musculus with 8 samples.

Results

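The genes described here are 33 genes of protein folding in the endoplasmic reticulum (ER): the sensors of the unfolded protein response, ER chaperones and their cofactors, lectin chaperones and folding enzymes, ER-associated degradation genes, and genes of the translocon. They were chosen by symbol from a table of 15465 genes, all 33 were in it, and the rule that chose them used no measured value. Earlier results of these data were known when they were chosen. RNA sequencing measured them in mouse dendritic cells that had received either a negative control siRNA (si-nc, 4 samples) or an siRNA to Suclg2 (si-Suclg2, 4 samples). Suclg2 encodes a subunit of a succinyl-CoA ligase of the mitochondrial matrix. All 8 samples were labelled wild type. Per the labels' protocols, both groups started from C57/BL6 bone marrow that was kept for 6 days in culture with the cytokines GM-CSF and IL-4, received LPS for 24 hours, were selected for CD11c with magnetic beads and then spent 9 days on spleen stroma cells before transfection. The time from transfection to collection, the siRNA sequences, and whether the replicates came from separate mice or cultures are not stated in the sources at hand, so the p-values measure only the spread between these samples, which may be technical.

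Proteins that are secreted or sit in membranes enter the ER through the Sec61 channel and are folded there by chaperones such as BiP (Hspa5), by oxidoreductases that form disulfide bonds, and by the lectins calnexin and calreticulin, which hold proteins with sugar chains. Proteins that do not fold are returned to the cytosol and degraded. When unfolded proteins build up, sensors in the ER membrane act: IRE1 (Ern1) splices the messenger RNA of Xbp1, ATF6 is cut to release a transcription factor, and PERK (Eif2ak3) slows translation. Dendritic cells are known for using IRE1 and XBP1 in their development and survival, and calreticulin, Pdia3 and their partners load peptides on MHC class I.

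ATF6 and XBP1 act through short promoter elements, and the copies of these elements in the promoters of the genes described here are shown first. The ER stress response element (ERSE) was searched as CCAAT, 9 bases of any kind and CCACG, and its short form ERSE-II as ATTGG, 1 base and CCACG, on both strands of RefSeq promoters of GRCm38.p6 that run from 250 bases before to 50 bases after a gene's start. Of the 33 genes, 27 had such a promoter (30 promoters), and 8 held an ERSE. Over all 32851 promoters, the ERSE stood in 0.119% and ERSE-II in 0.0365%. The sites read as follows on the strand that carries the motif, with its fixed letters in capitals.
Calr (ERSE): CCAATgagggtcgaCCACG
Canx (ERSE): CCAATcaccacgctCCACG
Creld2 (ERSE): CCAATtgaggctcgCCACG
Dnajc3 (ERSE): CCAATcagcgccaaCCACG
Hsp90b1 (ERSE): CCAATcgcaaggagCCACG
Hsp90b1 (ERSE): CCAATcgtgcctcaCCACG
Hspa5 (ERSE): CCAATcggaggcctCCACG
Pdia6 (ERSE): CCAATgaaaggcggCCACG
Syvn1 (ERSE): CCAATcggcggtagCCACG
Dnajb11 (ERSE-II): ATTGGcCCACG
Herpud1 (ERSE-II): ATTGGgCCACG
Counted with the start base as 0, the Hspa5 site began at -65, the Syvn1 site at -44 and the Pdia6 site at -98. Hsp90b1 was the one gene with a pair of exact ERSE matches, which began at -212 and -107. Copies of a motif with a changed fixed letter were not counted, so a gene may hold more copies than are listed. The ERSE-II site of Dnajb11 lay just after the start, at 7 to 17, and that of Herpud1 at -52 to -42. No site of these genes overlapped another. Another element, the UPRE, searched as TGACGTGG, was in 0.676% of all promoters and in 0 of the 30 promoters of these genes. The 250 bases before the RefSeq start are printed for Hspa5 (chr2:34771840-34772089, plus strand) and Hsp90b1 (chr10:86705445-86705694, minus strand), whose promoters hold the ERSE, and for Xbp1 (chr11:5520391-5520640, plus strand), which is described below and holds none of the 3 motifs. The second Hsp90b1 site is on the opposite strand and so appears reversed and complemented, as CGTGG and ATTGG.
Hspa5 upstream: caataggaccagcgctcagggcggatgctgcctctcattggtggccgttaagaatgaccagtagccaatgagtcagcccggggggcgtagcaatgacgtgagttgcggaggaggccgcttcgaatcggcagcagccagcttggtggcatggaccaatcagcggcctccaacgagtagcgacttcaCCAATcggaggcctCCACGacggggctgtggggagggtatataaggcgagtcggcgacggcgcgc
Hsp90b1 upstream: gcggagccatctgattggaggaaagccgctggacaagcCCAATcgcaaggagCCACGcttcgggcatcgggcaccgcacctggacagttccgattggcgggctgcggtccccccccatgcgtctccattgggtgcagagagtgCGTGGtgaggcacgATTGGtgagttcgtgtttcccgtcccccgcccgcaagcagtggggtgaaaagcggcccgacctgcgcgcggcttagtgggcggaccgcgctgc
Xbp1 upstream: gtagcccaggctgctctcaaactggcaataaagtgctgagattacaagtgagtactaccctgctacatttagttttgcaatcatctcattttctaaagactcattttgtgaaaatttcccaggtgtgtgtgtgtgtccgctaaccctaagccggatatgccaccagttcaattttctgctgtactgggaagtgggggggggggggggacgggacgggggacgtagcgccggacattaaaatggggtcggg
A match is a description of the letters and not evidence that a factor binds there.

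Suclg2 itself was lower with si-Suclg2. Its values were 4.68, 4.69, 4.56 and 4.43 FPKM (fragments per kilobase of transcript, scaled to the size of the library) with si-nc, and 2.23, 2.30, 2.76 and 2.61 FPKM with si-Suclg2, which is 53.9% of the si-nc mean. The groups did not overlap (adjusted p = 8.84e-05 in limma, a linear model fitted to all genes on log2(FPKM + 1); two-sided exact permutation p = 0.0286, the smallest that 4 against 4 can give). The table gave no read counts, so the depth is unknown and no counting interval is given. A sample's values added up to 506241 to 539290 FPKM, and 9903 to 10177 genes reached 1 FPKM. In both groups, numbers 1 and 2 resembled each other, as did numbers 3 and 4, more than the other samples of their group, and the labels do not say what this division stands for. Of the dendritic cell markers, Itgax (CD11c) averaged 20.2 ± 2.84 FPKM with si-nc and 12.6 ± 0.958 with si-Suclg2 (SD, n = 4), while Flt3 was at most 0.14 and Zbtb46 at most 0.45 FPKM in every sample. Summed over the 8 dendritic cell markers in the table, the level was 1214 to 1453 FPKM with si-nc and 684.3 to 923.5 with si-Suclg2. Of the 6 tested, 3 were lower (Itgax, H2-Aa and Cd74). Among all tested genes, 14.9% were lower and 12.0% higher (limma, adjusted p under 0.05), and these shares stand beside each marker count below. Cd74 and the MHC class II genes H2-Aa and H2-Ab1 made up most of that sum. H2-Ab1, Irf8 and Ccr7 did not pass (adjusted p = 0.0546, 0.572 and 0.56, limma). Markers of other cells also moved: summed macrophage and monocyte markers were 21470 to 26890 FPKM with si-nc and 15800 to 18890 with si-Suclg2, with 2 of 8 higher and 4 lower. Lyz2 and Apoe, both lower, made up most of that sum, while Adgre1 went from 333.1 ± 37.6 to 596.7 ± 52.4 FPKM and Fcgr1 from 354.0 ± 7.38 to 517.2 ± 22.0 FPKM. Of the 5 plasma and B cell markers in the table, Jchain, Cd79a and Ms4a1 were at most 0.11 FPKM in every sample, and the sum was 14.58 to 16.32 FPKM with si-nc and 9.39 to 12.25 with si-Suclg2. In that list Sdc1 and Prdm1 were lower. For the 11 spleen stroma markers in the table the sums were 15.1 to 34.16 and 13.37 to 25.08 FPKM, with Pdgfra, Lum and Thy1 at most 0.13. Of the 6 stroma markers tested, 0 passed in limma and 2 had an unadjusted p under 0.05, beside 38.6% of all tested genes. All 6 estimates were nevertheless below 0. Their log2 fold changes (si-Suclg2 minus si-nc) ran from -0.72 for Sparc to -0.16 for Vcam1, with a median of -0.47. T and NK cell markers summed to at most 0.64 FPKM and neutrophil markers to at most 3.09 FPKM in every sample, and S100a8, the one gene of these lists that was tested, was higher with si-Suclg2 (adjusted p = 0.0346, limma). The part of these markers in the results on ER genes was not tested. In bulk samples such as these, fewer cells of a type and less RNA per cell cannot be told apart.

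With si-Suclg2, the 33 genes did not move one way. Xbp1, Dnajb11 and Pdia3 rose, Eif2ak3, Hyou1, Edem1 and Sel1l fell, and the other 26 did not pass the test (limma, adjusted p under 0.05 over 10176 genes). All 33 passed the filter on low values (a group mean of at least 1 FPKM in at least one group). The 7 that passed make 21.2% of the 33, where 26.9% of all tested genes passed, 12.0% higher and 14.9% lower. Groups did not overlap for 10 of the 33, and for 29.6% of all tested genes. Log2 fold changes, si-Suclg2 minus si-nc throughout, ran from -0.41 to 0.27, so every gene stayed within a factor of 1.5. Their median was -0.02, beside -0.03 over all tested genes, and the median size of the change was 0.08, beside 0.12. The median of the 33 turned positive under trimmed-mean scaling and without si-nc 4. Mean levels ran from 4.39 FPKM for Eif2ak3 to 438.1 FPKM for Calr. Summed over all 33 genes the level was 2205 ± 68.2 FPKM with si-nc and 2265 ± 140 with si-Suclg2 (SD, n = 4). With the replicate number as a block, 5 of the 33 were higher and 7 lower, where 18.0% and 22.5% of all tested genes were. In the authors' deposited table, 22 of the 33 (66.7%) had a DEGseq q-value under 0.05, as did 63.3% of the genes tested here.

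**Figure D1:**
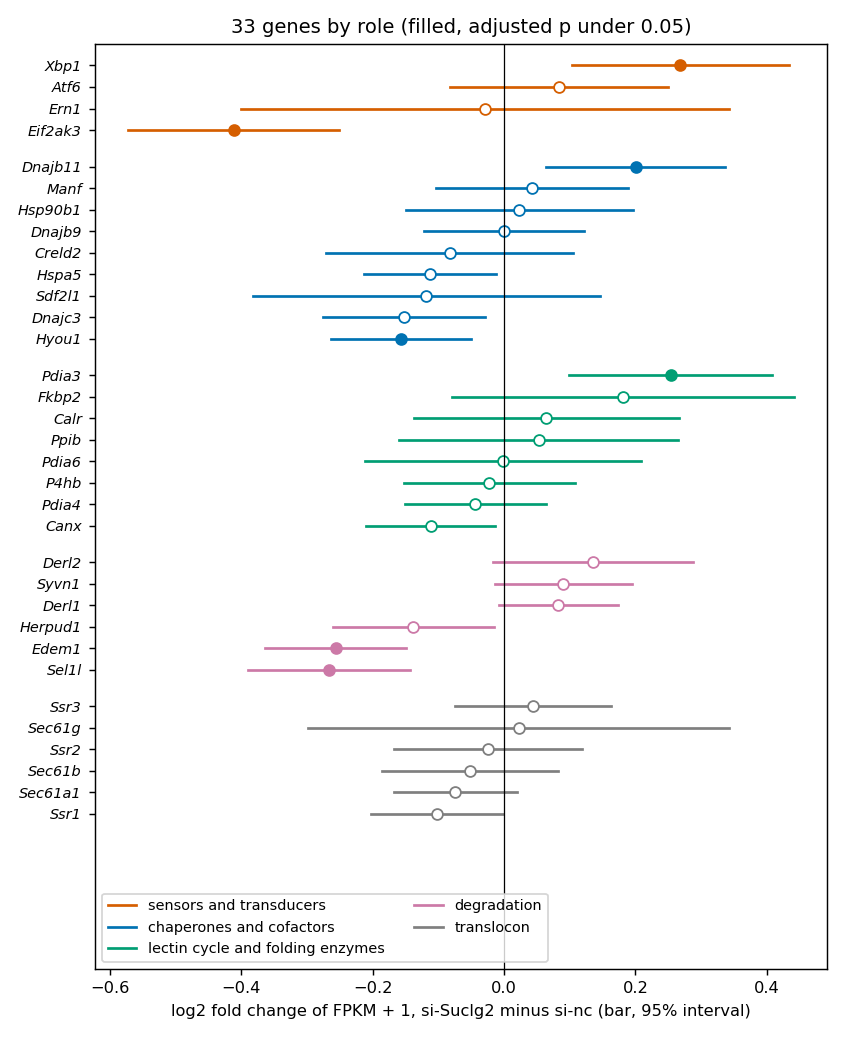
Log2 fold change of FPKM + 1 for each of the 33 genes, si-Suclg2 minus si-nc (x axis), by role and ordered within a role. Points are estimates from 4 samples a group, bars 95% intervals, and filled points passed the adjusted p of 0.05: 3 lie above 0 (Xbp1, Dnajb11, Pdia3) and 4 below (Eif2ak3, Hyou1, Edem1, Sel1l).

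Of the sensors and transducers, Xbp1 rose and Eif2ak3 fell, while Ern1 and Atf6 did not pass the test. Xbp1 (gene ID 22433; chr11:5520659-5525893, plus strand, GENCODE M21 on GRCm38, as for the coordinates below) encodes the transcription factor whose messenger RNA IRE1 splices. Its level was 69.29, 68.55, 77.30 and 79.67 FPKM with si-nc, and 82.41, 82.09, 95.34 and 96.35 FPKM with si-Suclg2. Every si-Suclg2 sample was above every si-nc sample, and in both groups numbers 3 and 4 were the higher pair. The means were 73.7 ± 5.61 and 89.1 ± 7.86 FPKM (SD, n = 4), 1.21 times as high with si-Suclg2, and the log2 fold change was 0.27 ± 0.07 (SE; adjusted p = 0.0238, limma). The call was lost without si-nc 1 (adjusted p = 0.0647), si-nc 2 (0.0653), si-Suclg2 3 (0.0648) or si-Suclg2 4 (0.0655). Values per gene do not tell the spliced from the unspliced form of Xbp1, so IRE1 activity was not measured.

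Eif2ak3 (gene ID 13666; chr6:70844515-70905245, plus strand) encodes PERK, the kinase that phosphorylates the translation factor eIF2 alpha. Its level was 5.17, 4.48, 5.40 and 5.58 FPKM with si-nc, and 3.30, 3.67, 3.80 and 3.72 FPKM with si-Suclg2. The groups did not overlap, and the difference was well beyond the spread within either. The si-Suclg2 mean was 0.702 of the si-nc mean, and the log2 fold change of -0.41 ± 0.07 was the lowest of the 33 (adjusted p = 0.00258, limma; 0.00162 to 0.00958 with any 1 sample left out). Eif2ak3 was also the least abundant of the 33, so adding 1 to the FPKM understates its change more than that of the others.

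Ern1, which encodes the IRE1 kinase and nuclease, was at 12.68, 11.40, 10.59 and 9.19 FPKM with si-nc, and at 13.73, 13.23, 8.60 and 8.18 FPKM with si-Suclg2. The si-Suclg2 samples were both the 2 highest and the 2 lowest of the 8, divided by replicate number. The means of 10.96 ± 1.46 and 10.94 ± 2.95 FPKM gave a log2 fold change of -0.03 with a 95% interval from -0.40 to 0.34 (adjusted p = 0.919, limma). The standard error was 0.165 on the log2 scale, and 0.077 with the replicate block (adjusted p = 0.788). Atf6, the sensor that is cut in the Golgi, was at 21.99, 21.20, 19.45 and 18.54 FPKM with si-nc, and at 23.68, 22.72, 20.16 and 19.74 FPKM with si-Suclg2. Its groups overlapped, with an interval from -0.08 to 0.25 (adjusted p = 0.454, limma). Summed over these 4 genes, the level was 110.1 ± 3.47 FPKM with si-nc and 125.2 ± 3.24 with si-Suclg2, and Xbp1 made up most of that sum.

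**Figure D2:**
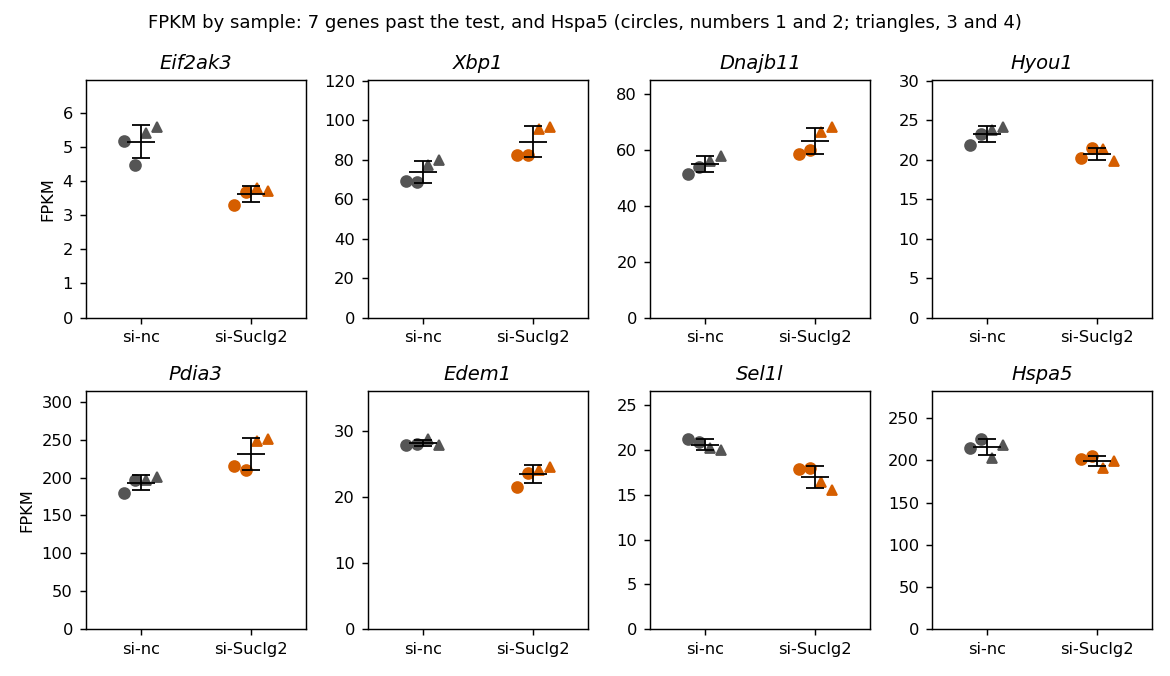
FPKM (y axis, from 0) in each of the 8 samples for the 7 genes that passed the test and for Hspa5, with si-nc and si-Suclg2 on the x axis and bars at the group mean ± SD (n = 4). Circles are replicate numbers 1 and 2 and triangles 3 and 4: Xbp1, Dnajb11 and Pdia3 are higher in numbers 3 and 4 of the si-Suclg2 samples than in 1 and 2.

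Of the 9 chaperones and cofactors, Dnajb11 rose and Hyou1 fell, and 7 did not pass. The 2 calls make 22.2%, beside 26.9% of all tested genes. The median log2 fold change of the 9 was -0.08. Hspa5 (BiP), the most abundant of them and the Hsp70 chaperone of the ER, was at 215.31, 225.87, 202.99 and 218.10 FPKM with si-nc, and at 201.94, 204.69, 191.18 and 198.83 FPKM with si-Suclg2. The groups overlapped, because si-nc 3 lay below the highest si-Suclg2 sample. The means were 215.6 ± 9.50 and 199.2 ± 5.83 FPKM, and the log2 fold change of -0.11 (95% interval -0.21 to -0.01) did not pass (adjusted p = 0.0926, limma). It passed with the replicate block (adjusted p = 0.0227), under quantile normalization (0.0136), without si-nc 3 (0.0492) and in numbers 1 and 2 alone (0.0464).

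Dnajb11 (gene ID 67838; chr16:22857845-22879634, plus strand), which encodes the ERdj3 cofactor of BiP, was at 51.30, 54.00, 56.18 and 57.91 FPKM with si-nc, and at 58.55, 60.00, 66.33 and 68.12 FPKM with si-Suclg2. The lowest si-Suclg2 sample was just above the highest si-nc sample. The ratio of means was 1.15 and the log2 fold change 0.20 ± 0.06 (adjusted p = 0.0354, limma). The call was lost without si-nc 1 (0.0932), si-nc 2 (0.0817), si-nc 3 (0.0558), si-Suclg2 3 (0.0921) or si-Suclg2 4 (0.0933), and with no filter on low values (0.0514). An antisense gene, Gm30505, overlaps Dnajb11, and whether reads were counted by strand is not stated in the labels.

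Hyou1 (gene ID 12282; chr9:44379490-44392369, plus strand), a large ER chaperone of the Hsp70 family that serves as a nucleotide exchange factor for BiP, was at 21.87, 23.23, 23.81 and 24.13 FPKM with si-nc, and at 20.24, 21.54, 21.32 and 19.91 FPKM with si-Suclg2. The groups did not overlap, although the lowest si-nc and the highest si-Suclg2 sample were close. The ratio of means was 0.892 and the log2 fold change -0.16 ± 0.05 (adjusted p = 0.0358, limma). The call was lost without si-nc 2 (0.0756), si-nc 3 (0.083), si-nc 4 (0.0887), si-Suclg2 1 (0.0772), si-Suclg2 3 (0.0526) or si-Suclg2 4 (0.095), under trimmed-mean scaling (0.0699) and in numbers 1 and 2 alone (0.183).

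Dnajc3 (p58IPK), another cofactor of BiP, averaged 9.96 ± 0.354 FPKM with si-nc and 8.87 ± 0.547 with si-Suclg2, with groups that did not overlap, and did not pass (adjusted p = 0.0689, limma; 0.0266 with the replicate block). Hsp90b1 (GRP94), the Hsp90 chaperone of the ER, averaged 131.6 ± 11.6 and 133.7 ± 11.2 FPKM. Dnajb9 (ERdj4), a cofactor whose transcription is known to depend on XBP1, averaged 22.2 ± 0.806 and 22.3 ± 1.5 FPKM, with a 95% interval from -0.12 to 0.12 on the log2 scale. That interval leaves out a rise as large as the estimate for Xbp1. The interval of Xbp1 itself was 0.10 to 0.43, and the difference between these genes was not tested. Sdf2l1, a partner of Dnajb11, averaged 27.5 ± 4.08 and 25.3 ± 3.71 FPKM. The secreted stress proteins Manf and Creld2 averaged 22.7 ± 1.15 and 13.9 ± 1.83 FPKM with si-nc, and 23.5 ± 2.02 and 13.0 ± 0.698 with si-Suclg2. None of these last 5 had an adjusted p under 0.5 in limma.

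Of the 8 lectin chaperones and folding enzymes, Pdia3 rose and 7 did not pass, with a median log2 fold change of 0.03. The single call makes 12.5%, beside 26.9% of all tested genes. Pdia3 (gene ID 14827; chr2:121413775-121438687, plus strand) encodes ERp57, the disulfide isomerase that works with calnexin and calreticulin and belongs to the MHC class I loading complex. Its level was 179.14, 197.19, 197.26 and 200.17 FPKM with si-nc, and 215.62, 210.19, 248.06 and 251.49 FPKM with si-Suclg2. The groups did not overlap, and numbers 3 and 4 were the higher pair with si-Suclg2. The means were 193.4 ± 9.63 and 231.3 ± 21.4 FPKM, a ratio of 1.2, and the log2 fold change was 0.25 ± 0.07 (adjusted p = 0.023, limma). The call was lost without si-nc 1 (0.0629), si-Suclg2 3 (0.0627) or si-Suclg2 4 (0.0619). Catsper2 overlaps Pdia3 on the other strand.

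Calr, which encodes the soluble lectin calreticulin, had the highest mean level of the 33. It was at 409.19, 427.13, 416.10 and 455.50 FPKM with si-nc, and at 397.76, 395.09, 503.96 and 500.33 FPKM with si-Suclg2. The si-Suclg2 samples lay on both sides of the si-nc samples, 2 below all of them and 2 above. The log2 fold change of 0.06 had a 95% interval from -0.14 to 0.27 (adjusted p = 0.646, limma). Canx, the membrane-bound lectin calnexin, averaged 74.5 ± 1.54 FPKM with si-nc and 69.0 ± 3.26 with si-Suclg2, with groups that did not overlap, and did not pass (adjusted p = 0.0883, limma; 0.0333 with the replicate block). Thus the 3 partners of the lectin cycle differed in their estimates, at 0.25 for Pdia3, 0.06 for Calr and -0.11 for Canx, and the differences between them were not tested.

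The other disulfide isomerases did not pass the test. P4hb (PDI), Pdia4 and Pdia6 averaged 142.8 ± 6.37, 32.2 ± 1.40 and 63.4 ± 2.97 FPKM with si-nc, and 140.8 ± 10, 31.2 ± 1.28 and 63.8 ± 9.43 FPKM with si-Suclg2. Their 95% intervals on the log2 scale were -0.15 to 0.11, -0.15 to 0.06 and -0.21 to 0.21, and all 3 leave out a rise of the size estimated for Pdia3. The interval of Pdia3 itself was 0.099 to 0.41, and differences between these genes were not tested. Of the prolyl isomerases, Ppib (cyclophilin B) averaged 137.8 ± 10.3 and 143.6 ± 19.8 FPKM, and Fkbp2 50.7 ± 7.29 and 57.6 ± 8.03 FPKM (adjusted p = 0.29 for Fkbp2, limma; 0.0333 with the replicate block).

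Of the 6 degradation genes, Edem1 and Sel1l fell and 4 did not pass, with 3 of the 6 at an unadjusted p under 0.05. Over all tested genes, 26.9% passed and 38.6% were under that unadjusted p (limma). Edem1 (gene ID 192193; chr6:108828641-108859356, plus strand) trims or recognises mannose on misfolded glycoproteins and directs them to degradation. It was at 27.94, 28.05, 28.84 and 27.86 FPKM with si-nc, and at 21.53, 23.67, 24.13 and 24.48 FPKM with si-Suclg2. Each si-Suclg2 sample was more than 3 FPKM below each si-nc sample. The ratio of means was 0.832 and the log2 fold change -0.26 ± 0.05 (adjusted p = 0.00377, limma; 0.00637 to 0.0129 with any 1 sample left out).

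Sel1l (gene ID 20338; chr12:91806043-91849157, minus strand), the adaptor that holds the ubiquitin ligase HRD1 in its complex, was at 21.29, 20.96, 20.28 and 20.01 FPKM with si-nc, and at 17.94, 18.05, 16.46 and 15.58 FPKM with si-Suclg2. Again the groups did not overlap, and the gap between them was wider than the range of the si-nc samples. The ratio of means was 0.824 and the log2 fold change -0.27 ± 0.06 (adjusted p = 0.00628, limma; 0.00779 to 0.0208 with any 1 sample left out). Syvn1, which encodes HRD1 itself, averaged 31.6 ± 1.27 FPKM with si-nc and 33.7 ± 1.42 with si-Suclg2 (adjusted p = 0.187, limma). Its 95% interval from -0.01 to 0.19 on the log2 scale leaves out a fall as large as the estimate for Sel1l. The difference between these genes was not tested.

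Derl1, the most abundant of the degradation genes and a membrane protein of the channel back to the cytosol, was at 51.79, 50.52, 54.19 and 54.05 FPKM with si-nc, and at 54.17, 55.05, 57.30 and 56.61 FPKM with si-Suclg2. The groups overlapped narrowly (adjusted p = 0.166, limma; interval -0.01 to 0.17). Its relative Derl2 averaged 14.3 ± 0.872 and 15.8 ± 1.34 FPKM (adjusted p = 0.176, limma; 0.0249 with the replicate block). Herpud1, which binds HRD1 and is known as a target of the response, averaged 16.2 ± 1.08 and 14.6 ± 0.475 FPKM (adjusted p = 0.0938, limma; 0.0171 in numbers 3 and 4 alone and 0.550 in numbers 1 and 2 alone). Within this group of 6, then, 2 genes passed lower, and the estimates for Syvn1, Derl1 and Derl2 were above 0.

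None of the 6 translocon genes passed in limma, and 1 of them, Ssr1, had an unadjusted p under 0.05. The shares over all tested genes were 26.9% and 38.6%. Ssr2, the most abundant of the 6, encodes a subunit of the translocon-associated protein complex and was at 75.11, 71.27, 82.04 and 81.41 FPKM with si-nc, and at 71.32, 71.99, 79.51 and 81.89 FPKM with si-Suclg2. Values of the groups overlapped almost wholly, and numbers 3 and 4 were higher than 1 and 2 in both (interval of the group difference -0.17 to 0.12 on the log2 scale). The subunits Ssr1 and Ssr3 averaged 22.3 ± 0.618 and 64.0 ± 2.82 FPKM with si-nc, and 20.7 ± 0.858 and 66.1 ± 4.01 with si-Suclg2, and the Ssr1 groups did not overlap (adjusted p = 0.126, limma). Of the Sec61 channel, the pore subunit Sec61a1 averaged 48.8 ± 2.04 and 46.3 ± 0.871 FPKM, and the small subunit Sec61b 60.3 ± 3.18 and 58.2 ± 4.04 FPKM. The other small subunit, Sec61g, averaged 15.2 ± 0.861 and 15.7 ± 3.52 FPKM, with si-Suclg2 1 at 10.67 and the other 3 si-Suclg2 samples at 16.53 to 18.81 FPKM. The summed translocon level was 288.0 ± 13.3 FPKM with si-nc and 283.1 ± 16.4 with si-Suclg2. The 6 log2 fold changes lay between -0.10 and 0.04.

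**Figure D3:**
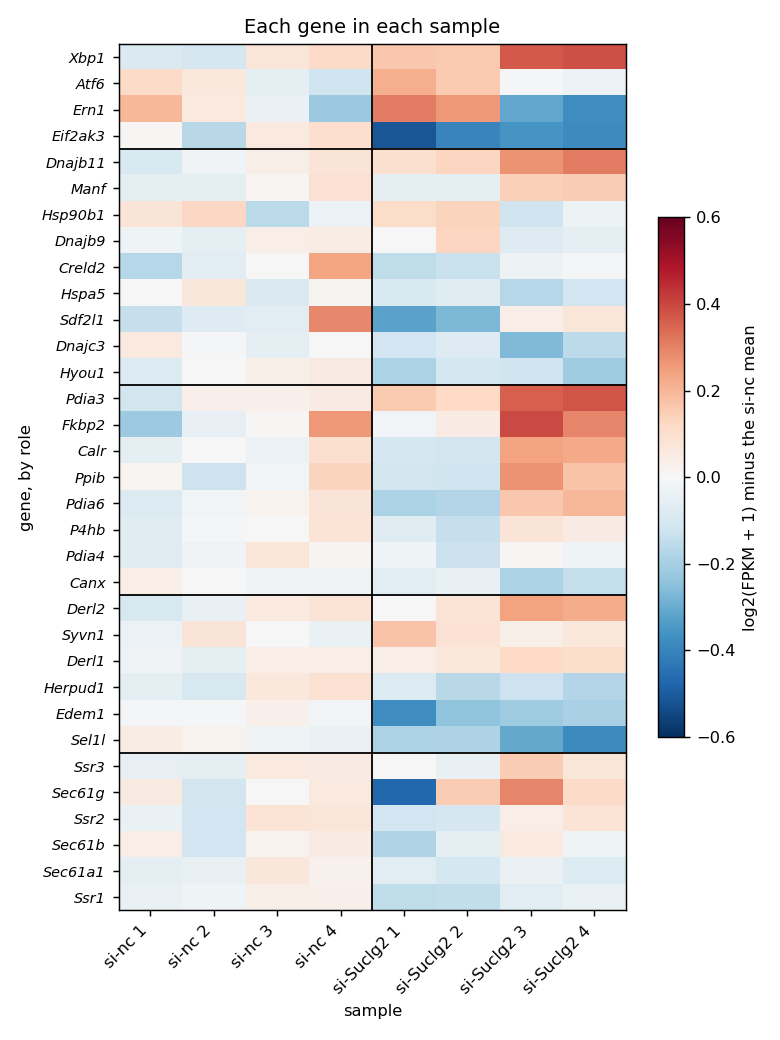
Log2(FPKM + 1) of each of the 33 genes in each of the 8 samples, less the gene's si-nc mean, with genes in rows by role and samples in columns. Eif2ak3, Edem1 and Sel1l are below the si-nc mean in all 4 si-Suclg2 samples and Xbp1 and Pdia3 above it, while Ern1 and Calr change sign between si-Suclg2 numbers 1 and 2 and numbers 3 and 4.

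For many of these genes the replicate numbers differed by as much as the groups did. From numbers 1 and 2 to numbers 3 and 4, the mean shifted in the same direction in both groups for 30 of the 33 genes (90.9%), up for 22 (66.7%) and down for 8 (24.2%). Over all tested genes the share was 74.8%, with 37.9% up and 36.9% down. For 18 of the 33 (54.5%) that shift was larger than the difference between the groups, as it was for 44.4% of all tested genes. All 6 translocon genes were higher in numbers 3 and 4 in both groups, as were 7 of the 8 lectin chaperones and folding enzymes. Hsp90b1, Atf6 and Ern1 were among those lower there.

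Within the pairs of numbers, 2 samples against 2, the 3 genes called higher over all 8 samples were called higher in each pair, and Eif2ak3, Edem1 and Sel1l were called lower in each. That is 9.09% of the 33 in either direction, beside 10.3% of all genes higher and 11.3% lower in both pairs, and these fits use the same samples as the fit over all 8. The fit within numbers 1 and 2 called 3 of the 33 higher and 6 lower, beside 14.4% and 16.7% of all genes tested there. The fit within numbers 3 and 4 called 4 higher and 6 lower, beside 14.7% and 17.9%. The sign of the difference was the same in both pairs for 25 of the 33 (75.8%) and for 78.2% of all tested genes. It was opposite for 8, and 4 of these were among the 8 lectin chaperones and folding enzymes. The mean of Calr went from 418.2 (si-nc) to 396.4 FPKM (si-Suclg2) in numbers 1 and 2 (adjusted p = 0.142, limma), and from 435.8 to 502.1 FPKM in numbers 3 and 4 (adjusted p = 0.0208). Pdia6 went from 61.23 to 55.70 FPKM in numbers 1 and 2 (adjusted p = 0.0404), and from 65.63 to 71.97 FPKM in numbers 3 and 4 (adjusted p = 0.0699). For Ern1 the means were 12.04 and 13.48 FPKM in numbers 1 and 2, and 9.89 and 8.39 FPKM in numbers 3 and 4. Differences between the pairs were not tested, and the fits with 2 samples a group rest on variances shared across genes.

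**Figure D4:**
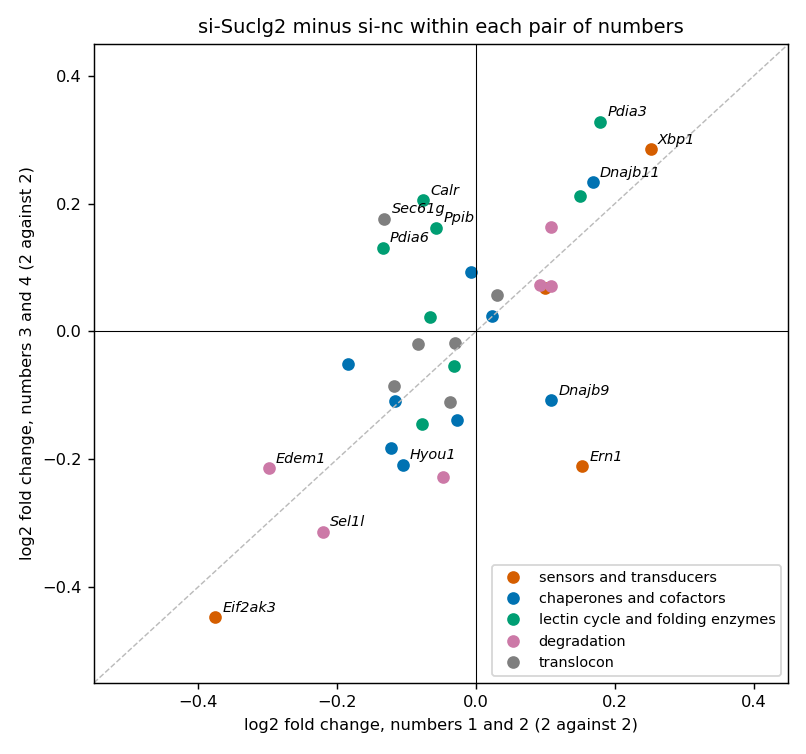
Log2 fold change of FPKM + 1, si-Suclg2 minus si-nc, within numbers 1 and 2 (x axis) and within numbers 3 and 4 (y axis) for each of the 33 genes, 1 point a gene and coloured by role. Xbp1, Dnajb11 and Pdia3 are above 0 on both axes and Eif2ak3, Edem1, Sel1l and Hyou1 below 0 on both, while Ern1, Calr and Pdia6 are among the 8 with opposite signs.

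The genes that hold a promoter element were read against the test as well. Of the 13 tested genes of the whole table with an ERSE in the promoter, 8 of them described here, 0 passed in limma and 3 had an unadjusted p under 0.05, with log2 fold changes from -0.15 to 0.17 and a median of -0.02. Over all tested genes, 26.9% passed and 38.6% had an unadjusted p under 0.05. With the replicate block, 0 of the 13 were higher and 4 lower, among them Hspa5, Dnajc3 and Canx. Over all tested genes, that block gave 18.0% higher and 22.5% lower. Of the 8 tested genes with ERSE-II, Dnajb11 was higher and Rcl1 lower, 5 had an unadjusted p under 0.05, and the median was -0.13. Of the 85 with a UPRE, 11 were higher and 7 lower, and 36 had an unadjusted p under 0.05, beside 12.0% higher and 14.9% lower over all tested genes. With the replicate block, 1 gene with ERSE-II was higher and 3 lower, and 22 genes with a UPRE were higher and 17 lower. These counts stand beside the block shares of 18.0% higher and 22.5% lower over all tested genes. Of the 7 ER genes that passed the test, Dnajb11 alone held one of the 3 motifs, 5 held none, and Hyou1 was not among the promoters searched.

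Beyond the 33, the wider pathway was read from 7 lists with 145 genes, of which 140 were tested. Of these, 22 were higher and 17 lower (27.9%, beside 26.9% of all tested genes), and their median log2 fold change was -0.02. With the replicate block, 31 were higher and 32 lower, where 18.0% and 22.5% of all tested genes were. The number called lower was 10 without si-nc 1, 10 without si-nc 2, 8 without si-nc 4, 9 without si-Suclg2 2 and 11 without si-Suclg2 4.

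Among 20 genes of the PERK branch and other regulators of the response, 4 were higher and 3 lower. That is 35.0%, beside 26.9% of all tested genes. The replicate block gave 5 higher and 4 lower, beside 18.0% and 22.5% of all tested genes. Nfya, a subunit of the NF-Y factor that binds the CCAAT end of the ERSE, fell from 29.8 ± 0.446 to 25.0 ± 0.994 FPKM (log2 fold change -0.25, adjusted p = 0.00212, limma). Mbtps1, the site-1 protease that cuts ATF6, fell from 13.1 ± 0.635 to 10.7 ± 0.699 FPKM (adjusted p = 0.00872; 0.0907 in numbers 1 and 2 alone). Traf2, an adaptor that binds activated IRE1, rose from 10.5 ± 0.30 to 12.5 ± 0.368 FPKM (log2 fold change 0.23, adjusted p = 0.00507). The others that passed, named after their values were seen, were Eif2s1 (the eIF2 alpha that PERK phosphorylates), Ppp1r15b and Atf4, all higher, and Nfyb, lower. The remaining 13 of the 20 did not pass. Among them were Ddit3, Trib3, Chac1, Ppp1r15a and Atf3 (adjusted p = 0.806, 0.243, 0.378, 0.259 and 0.515, limma).

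Of 25 tested oxidoreductases and isomerases outside the 33, 6 were higher and 1 lower, and with the replicate block 9 and 4. Without the block the share was 28.0%, beside 26.9% of all tested genes. The 3 with the lowest p were all higher. Ero1l, the oxidase that renews PDI, rose from 10.6 ± 0.507 to 13.5 ± 0.751 FPKM (log2 fold change 0.33, adjusted p = 0.00194, limma). Prdx4, the peroxiredoxin of the ER, rose from 41.4 ± 2.77 to 56.7 ± 6.09 FPKM (0.44, adjusted p = 0.00286), and Erp44, which retains Ero1 in the ER, from 51.1 ± 1.96 to 60.5 ± 2.04 FPKM (0.24, adjusted p = 0.00311). The single gene called lower, Fkbp9 (named after its value was seen), was no longer so without si-nc 1, 2 or 4 or without si-Suclg2 2, 3 or 4 (0 genes each), and without si-nc 3 there were 3.

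Of 22 tested genes of glycan processing and cargo exit, 3 were higher and 5 lower (36.4%, beside 26.9% of all tested genes). With the replicate block these were 5 and 7, and 3 were lower without si-nc 4, si-Suclg2 2 or si-Suclg2 4. Uggt1, which puts glucose back on unfolded glycoproteins so that calnexin and calreticulin bind them again, fell from 10.4 ± 0.488 to 7.998 ± 0.550 FPKM (log2 fold change -0.35, adjusted p = 0.00236, limma). The cargo lectin Lman2 fell from 43.2 ± 1.23 to 37.0 ± 1.13 FPKM (adjusted p = 0.00375), and the COPII coat gene Sec24d rose from 8.85 ± 0.674 to 11.0 ± 0.373 FPKM (adjusted p = 0.00603). The oligosaccharyltransferase had 0 of 12 genes higher and 2 lower, with 4 at an unadjusted p under 0.05 in either direction (limma), and 5 lower with the replicate block. The share called without the block was 16.7%, beside 26.9% of all tested genes, of which 38.6% had an unadjusted p under 0.05. Of the enzyme's catalytic subunits, Stt3b fell from 25.9 ± 0.651 to 22.0 ± 0.665 FPKM (adjusted p = 0.00318, limma). The more abundant Stt3a averaged 68.8 ± 2.33 FPKM with si-nc and 67.8 ± 1.94 with si-Suclg2 and did not pass (adjusted p = 0.739, limma). The small subunit Ost4 fell from 180.9 ± 8.55 to 157.7 ± 12.6 FPKM (adjusted p = 0.0417), and lost its call without si-nc 1 (0.0533), 2 (0.076), 3 (0.0764) or 4 (0.101), and without si-Suclg2 1 (0.0763) or 2 (0.0884), which left 1 gene called.

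Of 21 tested degradation genes outside the 33, 4 were higher and 3 lower (33.3%, beside 26.9% of all tested genes). With the replicate block these were 6 and 6, and 2 were higher without si-nc 4 or si-Suclg2 2. Erlec1, an ER lectin that binds Sel1l, rose from 28.3 ± 0.908 to 33.9 ± 0.630 FPKM (log2 fold change 0.25, adjusted p = 0.00146, limma), opposite in direction to Sel1l. The Herpud1 relative Herpud2 fell from 31.4 ± 0.428 to 27.9 ± 0.820 FPKM (adjusted p = 0.0119). Of 24 further genes of targeting and translocation, 1 was higher and 1 lower, which is 8.33%, and 4 were lower with the replicate block. Srp72, of the signal recognition particle, rose from 29.9 ± 0.616 to 32.96 ± 0.808 FPKM (adjusted p = 0.0274) and lost its call without si-nc 1 (0.0762) or 2 (0.0667), or si-Suclg2 1 (0.065) or 4 (0.059). Wrb, a receptor for tail-anchored proteins, fell from 4.26 ± 0.268 to 3.42 ± 0.371 FPKM (adjusted p = 0.033) and lost its call without si-nc 1 (0.0806), 2 (0.0778) or 4 (0.0789), or si-Suclg2 2 (0.0764) or 4 (0.0823). In those samples' absence the list had 0 genes in that direction.

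For comparison with folding outside the ER, 16 heat shock chaperones of the cytosol and mitochondria were tested, of which 4 were higher and 2 lower. The 6 calls make 37.5%, beside 26.9% of all tested genes. Any 1 sample left out brought the lower count (Hspb1 and Hspe1, named after their values were seen) to 0 or 1. Hsp90ab1, the constitutive cytosolic Hsp90, rose from 414.0 ± 30.6 to 534.8 ± 29.3 FPKM (log2 fold change 0.37, adjusted p = 0.00235, limma), where Hsp90b1 of the ER had an interval from -0.15 to 0.20. Hspa8, the constitutive cytosolic Hsp70, rose from 956.3 ± 25.4 to 1074 ± 11.6 FPKM (0.17, adjusted p = 0.0169; 0.0528 without si-nc 1), where the estimate for Hspa5 was -0.11. The inducible Hspa1a was at 1.27 ± 0.325 and 3.18 ± 0.385 FPKM (0.89, adjusted p = 0.000421), which is uncertain because its reads are shared with the near-identical Hspa1b, a gene not analysed here. Differences between the cytosolic and the ER genes were not tested.

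**Figure D5:**
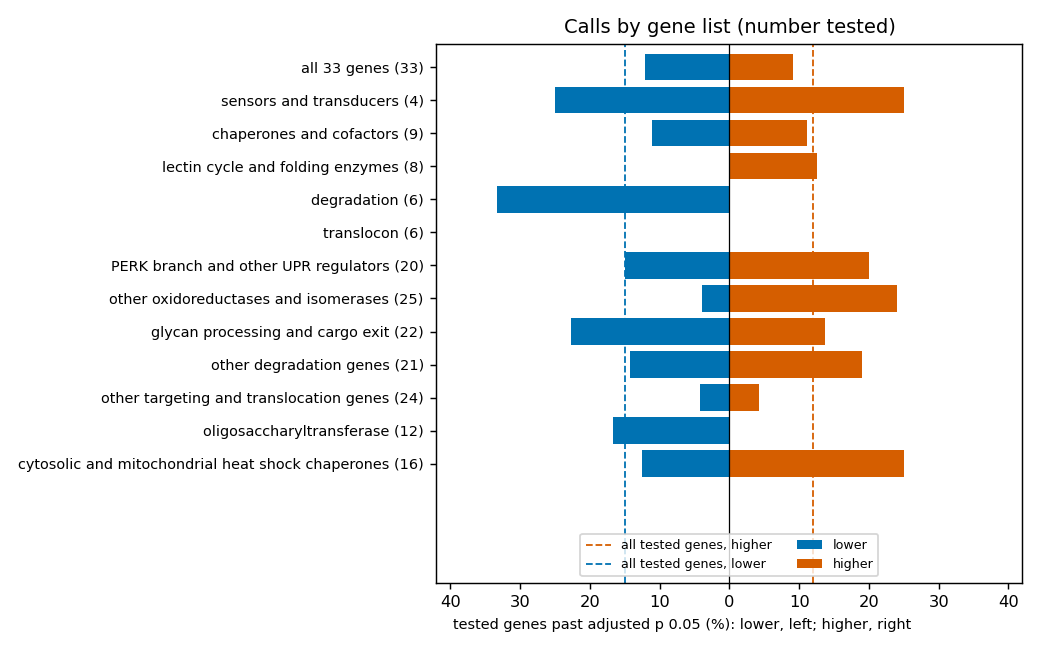
Share of tested genes past the adjusted p of 0.05 (x axis, percent) for the 33 genes, their 5 roles and the 7 further lists, lower with si-Suclg2 to the left and higher to the right, with the number tested in brackets. Dashed lines mark the shares over all tested genes, 14.9% lower and 12.0% higher, and the lists of 4 to 9 genes move by 11.1 percentage points or more with a single call.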

How the data were processed

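RNA sequencing values of 8 samples (4 si-nc, 4 si-Suclg2) came from one table deposited by the authors. Its header names no unit for the values per sample, which were treated as the authors' FPKM. They sum to unequal totals, and their scaling by length was assumed. FPKM is thus inferred, and no count or depth is given. Per the file headers, the deposited p-values and q-values are from DEGseq. The builds used, per the submitters' processing notes, were GRCm38.p4 and mm10. Which aligner, counter and annotation were used is not given in the sources used here. For 22 rows the symbol had been turned into a spreadsheet date and was restored by gene ID. The table held 0 mitochondrially encoded genes.

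Genes with a mean of at least 1 FPKM in at least one group (10176) were compared with limma 3.58.1 (R 4.3.3) on log2(FPKM + 1), which understates changes of low genes. The fit had a mean trend in the prior and group as its only term, with Benjamini-Hochberg adjustment at 0.05 over all tested genes. Single values used a two-sided exact permutation test. Alternatives were a pseudocount of 0.1, no filter, trimmed-mean scaling, quantile normalization, no prior trend, each sample left out, pairs of replicate numbers alone or averaged, and the replicate number as a block. The deviations of same-numbered samples from their group means had correlations of 0.527, 0.439, 0.405 and 0.553. All were above 0.1, so the replicate number was fitted as a block in an alternative, and not in the main fit. Numbers 1 and 2 correlated across groups as strongly (0.524 and 0.525), as did 3 and 4 (0.437 and 0.558). The correlations therefore do not tell pairs of single numbers from these 2 sets.

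All 33 genes are named. Values in every sample are given for those past the threshold, the 4 sensors and transducers, and the most abundant gene of each role. In each wider list the 3 called genes with the lowest p are named, where it had as many, except 1 that is not reported here. The genes and lists were chosen with earlier results of these data known. Promoters are from RefSeq, and gene coordinates from GENCODE M21.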

Additional observations from a re-analysis of the deposited data

Results flagged for a closer look

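Of 68 groups of 4 samples examined (the 33 genes and Suclg2, each in both siRNA groups), 2 had a sample far from the other 3, and chance alone flags about 1 in 20. Sdf2l1 was at 33.57 FPKM in si-nc 4, where the other si-nc samples lay between 24.71 and 25.98 FPKM. Pdia3 was at 179.14 FPKM in si-nc 1, where the other si-nc samples lay between 197.2 and 200.2 FPKM. Without that sample Pdia3 did not pass the test (log2 fold change 0.22, adjusted p = 0.0629, limma).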

How the results depend on the processing

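The fall of Suclg2 passed under every alternative run. Of the 33 genes, 3 were called higher and 4 lower; with the replicate block these counts were 5 and 7, with any 1 sample left out 0 to 3 and 3 to 4, and with the means of numbers 1 and 2 and of 3 and 4 as the replicates (2 against 2) 0 and 0. Samples whose loss left 0 higher were si-nc 1, si-Suclg2 3 and si-Suclg2 4. Over all tested genes, 1221 and 1519 became 1832 and 2294 with the block and 130 and 149 with the means of pairs. The block was used because same-numbered samples deviated together, but so did the crossed numbers within 1 and 2 and within 3 and 4. Whether single numbers pair the samples is therefore not known, and a block of these 2 sets was not fitted. The block by number added Derl2, Fkbp2, Dnajc3, Canx and Hspa5 to the calls and ended none of the 7. The means of pairs ended all 7 (adjusted p 0.112 to 0.318, limma). That fit had 2 values a group and no term for the division of numbers that both groups share, which stayed in its spread. Calls lost there cannot be told from low power. Eif2ak3, Edem1 and Sel1l passed under every other alternative.

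The sign turned only for genes that had not passed. Under quantile normalization the log2 fold change was 0.0022 for Ern1, -0.044 for Hsp90b1, -0.0038 for Dnajb9, -0.027 for Calr and -0.011 for Ppib. Under trimmed-mean scaling it was 0.023 for Pdia6, 0.0022 for P4hb and 0.00019 for Ssr2. In numbers 1 and 2 alone it was 0.15 for Ern1, -0.0070 for Manf, -0.077 for Calr, -0.057 for Ppib and -0.13 for Sec61g. In numbers 3 and 4 alone it was -0.11 for Dnajb9, 0.13 for Pdia6 and 0.023 for P4hb. With any 1 sample left out it ran from -0.14 to 0.086 for Ern1, -0.031 to 0.071 for Hsp90b1, -0.042 to 0.026 for Dnajb9, -0.069 to 0.062 for Pdia6, -0.056 to 0.017 for P4hb, -0.019 to 0.11 for Ppib, -0.068 to 0.19 for Sec61g and -0.063 to 0.0065 for Ssr2. Depth is unknown. The cause of these changes was not tested.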
